A study of Mus musculus with 36 samples.

Results

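Interferon-stimulated genes are the antiviral and immune genes that cells switch on after interferon binds its receptors. A set of 38 such genes was followed in mouse liver, and 33 of them had a probe set whose annotation names that gene alone, out of 19938 genes with such a probe set. Where a gene had several, the brightest over all samples was taken. Isg15, Oas1g, Gbp2 and Gbp6 lie only on probe sets shared with other genes and are given no value. Ifi44 has no listed probe set and was not analysed here.

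The livers came from mice of the inbred strain C57BL/6J, aged 16 weeks, which had eaten a high fat diet or normal chow. The high fat diet drew 60% of its calories from fat and lasted 10 weeks, and all animals fed freely under 12 h of light and 12 h of darkness. Livers were taken at Zeitgeber times ZT0, ZT4, ZT8, ZT12, ZT16 and ZT20, counted in hours from lights on. The 6 high fat diet groups and the 6 chow groups had 3 samples each, with 1 Affymetrix whole-transcript array per sample and 36 in all. Levels are log2(intensity + 16), called the log2 value here, and differences as high fat diet minus chow on that scale.

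Array medians lay between 75.7 and 95.6 intensity units, and arrays of 1 group correlated at 0.976 to 0.993. The p-values weigh differences against the scatter between these samples. Since the labels do not tell whether a sample is 1 animal or a pool, that need not be the scatter between animals. Hepatocyte markers summed to 85008 to 95845 intensity units on high fat diet and to 84920 to 98079 on chow, all 11 measured markers were above the intensity limit of the tests, and the label liver held. In quality weights estimated by limma the arrays of chow ZT4 replicate 2, chow ZT20 replicate 3, high fat diet ZT20 replicate 2 and chow ZT16 replicate 1 were lowest, at 0.265 to 0.409. Without these 4 arrays the average comparison below gave 26 genes higher and 1 lower, in place of 28 and 1.

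Type I interferons act through a paired receptor and the kinases Jak1 and Tyk2. Stat2 and Irf9 are parts of the complex ISGF3, which then binds the interferon-stimulated response element (ISRE) in promoters. Interferon gamma acts at a different site, the gamma-activated sequence (GAS), and many target genes respond to both kinds of interferon. In liver the responding cells include hepatocytes, Kupffer cells (the resident macrophages) and endothelial cells.

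The promoters of 6 of these genes are shown because they hold the core letters of the ISRE. They belong to the 6 genes with the smallest p for the average diet difference among those with an ISRE core and a RefSeq promoter. Each runs from 250 bases before to 50 bases after the gene's start, in GRCm38.p6 coordinates, printed 5′ to 3′ on the gene's own strand. Capitals mark the ISRE core on either strand, taken as a pair of GAAA boxes with any 2 bases between them, which reads as a pair of TTTC boxes on the other strand.
Ifit1, chr19:34640639-34640938, plus strand: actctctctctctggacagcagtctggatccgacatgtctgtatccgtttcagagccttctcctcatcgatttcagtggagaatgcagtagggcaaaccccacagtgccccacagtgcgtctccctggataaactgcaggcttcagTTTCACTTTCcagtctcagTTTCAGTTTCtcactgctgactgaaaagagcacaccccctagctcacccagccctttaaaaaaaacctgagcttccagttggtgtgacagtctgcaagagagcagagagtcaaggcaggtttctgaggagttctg
Gbp3, chr3:142559794-142560093, plus strand: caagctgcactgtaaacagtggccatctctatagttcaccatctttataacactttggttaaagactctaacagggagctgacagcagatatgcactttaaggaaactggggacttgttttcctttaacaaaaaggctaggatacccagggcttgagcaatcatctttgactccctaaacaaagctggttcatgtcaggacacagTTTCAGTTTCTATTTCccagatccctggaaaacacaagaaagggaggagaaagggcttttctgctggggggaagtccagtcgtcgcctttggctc
Ifit3, chr19:34583279-34583578, plus strand: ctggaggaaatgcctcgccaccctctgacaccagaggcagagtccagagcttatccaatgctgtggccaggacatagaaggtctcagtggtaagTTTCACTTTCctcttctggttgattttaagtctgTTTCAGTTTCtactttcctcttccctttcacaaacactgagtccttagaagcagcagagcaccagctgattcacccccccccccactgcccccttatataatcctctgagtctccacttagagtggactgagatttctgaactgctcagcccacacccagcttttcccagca
Rsad2, chr12:26456403-26456702, minus strand: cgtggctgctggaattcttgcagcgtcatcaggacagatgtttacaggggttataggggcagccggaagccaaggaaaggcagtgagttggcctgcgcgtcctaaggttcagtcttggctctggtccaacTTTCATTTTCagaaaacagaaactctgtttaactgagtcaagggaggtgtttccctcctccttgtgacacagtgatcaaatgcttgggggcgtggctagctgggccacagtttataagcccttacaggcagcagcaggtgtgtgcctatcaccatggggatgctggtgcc
Ddx58, chr4:40239776-40240075, minus strand: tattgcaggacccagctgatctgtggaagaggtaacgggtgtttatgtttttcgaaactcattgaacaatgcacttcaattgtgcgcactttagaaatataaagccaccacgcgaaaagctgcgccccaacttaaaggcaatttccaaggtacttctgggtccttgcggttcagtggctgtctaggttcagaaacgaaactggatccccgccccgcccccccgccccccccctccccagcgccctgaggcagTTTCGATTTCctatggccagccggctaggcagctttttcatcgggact
Bst2, chr8:71537423-71537722, minus strand: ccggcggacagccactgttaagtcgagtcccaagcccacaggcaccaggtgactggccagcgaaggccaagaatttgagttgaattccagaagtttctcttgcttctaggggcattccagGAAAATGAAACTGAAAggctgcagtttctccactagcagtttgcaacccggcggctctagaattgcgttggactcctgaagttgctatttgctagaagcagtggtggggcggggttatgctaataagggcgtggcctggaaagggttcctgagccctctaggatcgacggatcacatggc
Ifit1 and Ifit3 each had 2 separate cores, beginning 104 and 85 bases before the start in Ifit1 and 156 and 122 bases before it in Ifit3. In Gbp3 and in Bst2 the 2 cores overlap and form 1 run of capitals. The core of Rsad2 begins 120 bases before the start, and that of Ddx58 lies just after the start. A promoter was in the table for 25 of the 33 genes, and 11 of these (44%) held an ISRE core in at least 1 promoter, against 3.44% of all 32851 promoters of this length and 3.58% of tested genes. Besides the 6 shown, these were Gbp7, Ifih1, Stat2, Oas3 and Oas1a. The GAS core TTCNNNGAA, searched on both strands, was found in 5 (20%), against 8.30% of all promoters. Both motifs can overlap other matches, and a match is a description of the letters, not of a bound factor. In the diet comparison described next, the median difference was 0.23 for those with an ISRE core and 0.28 for those with a promoter but no core.

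The main question was how the diets differ over the whole day. Interferon-stimulated genes were higher on high fat diet in 28 of 33 cases and lower in 1, the tetherin gene Bst2, while 4 were not called. Among all 13956 genes tested, 21.0% were called, 11.2% as higher and 9.80% as lower. The genes were chosen with earlier results of these data known, so the count describes them and is not independent evidence. Calls were made by limma at a Benjamini-Hochberg adjusted p under 0.05 over all genes tested, on the average over the 6 times of the high fat diet mean less the chow mean. The median difference over the 33 genes was 0.28, against 0.02 over all genes tested. Most changes were small: the 28 higher genes ran from 1.08-fold (Parp12) to 1.72-fold (Ifit1), and Ifit1, Gbp3 and Rsad2 reached 1.5-fold. These are bulk samples, in which more cells of a type and more RNA per cell cannot be told apart.

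**Figure D1:**
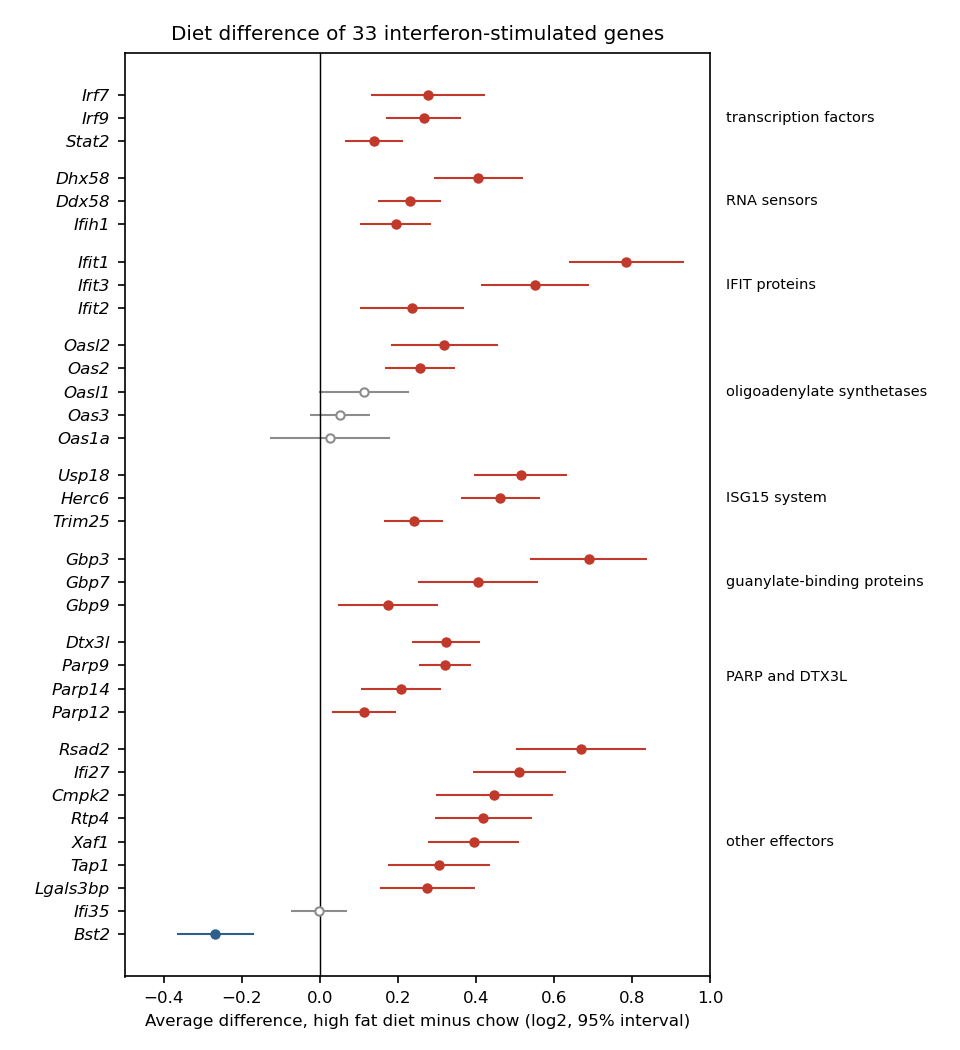
Average difference of each of the 33 genes, high fat diet minus chow on the log2 scale, with its 95% interval from limma, ordered by role. Filled red points are called higher, the filled blue point (Bst2, at -0.27) is called lower and open grey points were not called; Ifit1 lies farthest right at 0.78.

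The factors that carry the interferon signal to the genome were all called higher. Irf9, the DNA-binding subunit of ISGF3, had log2 values of 8.45, 8.95 and 9.32 (lowest, median and highest of 18 arrays) on high fat diet and 8.23, 8.69 and 9.12 on chow. Its difference was 0.27 ± 0.05 (SE, limma adjusted p = 8.94e-05). Irf7, which drives interferon alpha genes and amplifies the response, differed by 0.28 ± 0.07 (adjusted p = 0.00526). Stat2 differed by 0.14 ± 0.04 (adjusted p = 0.00532), and its call was lost when arrays were centred on their medians (0.10).

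The 3 cytosolic RNA sensors were called higher as well. Dhx58, which encodes LGP2, a regulator of the other two, had log2 values of 7.65, 7.92 and 8.40 on high fat diet and 7.15, 7.50 and 8.14 on chow. All 18 high fat diet arrays lay above the chow median, although only 2 exceeded the highest chow array. The difference was 0.41 ± 0.06 (SE, adjusted p = 2.22e-06). Ddx58, which encodes RIG-I, differed by 0.23 ± 0.04 (adjusted p = 6.60e-05), and Ifih1, which encodes MDA5, by 0.19 ± 0.04 (adjusted p = 0.00162).

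IFIT proteins bind viral RNA and block its translation, and Ifit1 had the largest average difference of the 33 genes. At ZT0 its log2 values were 8.43, 8.77 and 8.87 on high fat diet and 7.83, 7.93 and 7.95 on chow. At ZT12 they were 8.51, 8.56 and 8.64 on high fat diet and 7.34, 7.36 and 7.74 on chow. At each of the 6 times all 3 high fat diet arrays lay above all 3 chow arrays. Over the day Ifit1 had log2 values of 8.08, 8.50 and 9.31 (lowest, median and highest) on high fat diet and 7.08, 7.79 and 8.48 on chow. The difference was 0.78 ± 0.07 (SE, adjusted p = 1.90e-09).

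Ifit3, whose human counterpart makes a partner of the human IFIT1 protein, had log2 values of 8.63, 8.99 and 9.53 on high fat diet and 7.83, 8.47 and 8.91 on chow. All 18 high fat diet arrays lay above the chow median, and the difference was 0.55 ± 0.07 (adjusted p = 3.69e-07). Ifit2 differed by 0.24 ± 0.07 (adjusted p = 0.00854), with a higher mean on high fat diet at 4 of 6 times. IFIT genes resemble each other in sequence, as do the oligoadenylate synthetase and guanylate-binding protein genes, so signal shared between their probe sets is possible and was not measured.

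**Figure D2:**
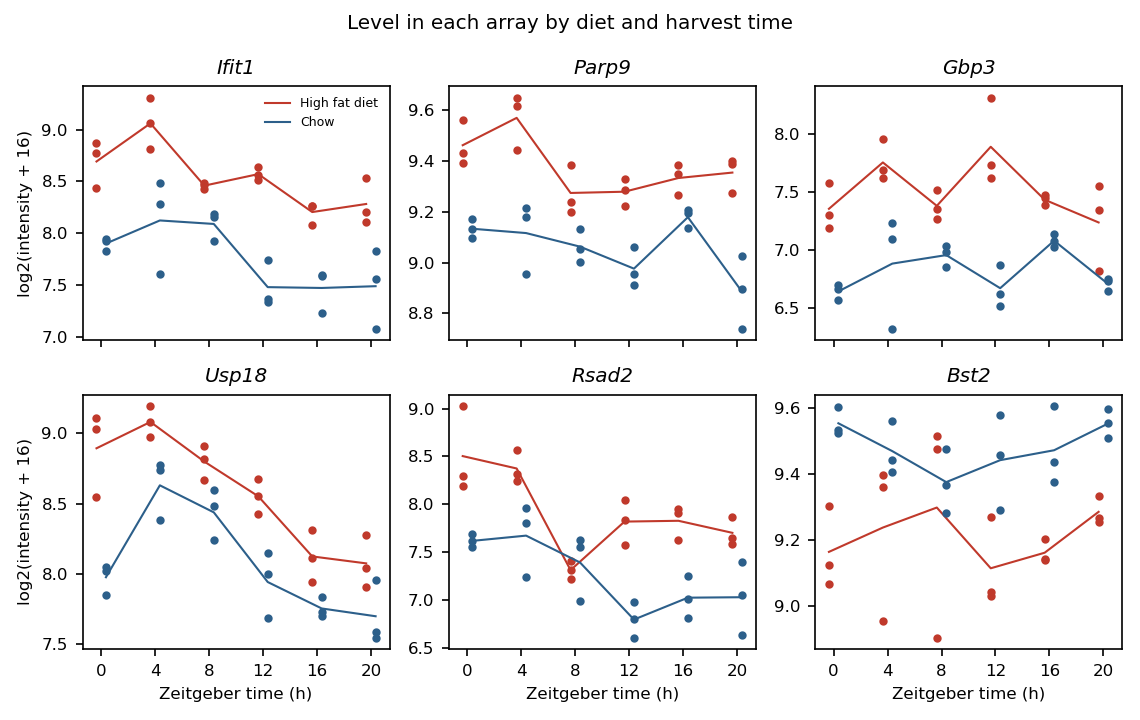
Log2 value of 6 genes in each array (points) against Zeitgeber time in hours, high fat diet in red and chow in blue, with lines through the means of 3 arrays and points set slightly apart for view. Ifit1, Parp9 and Gbp3 show no overlap between the diets at any time, Rsad2 overlaps at ZT8, and Bst2 lies lower on high fat diet.

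Oligoadenylate synthetases make short chains that activate the RNA-degrading enzyme RNase L, and 2 of 5 were called, both higher. Oas2 had log2 values of 6.56, 6.81 and 7.08 on high fat diet and 6.23, 6.52 and 6.77 on chow, a difference of 0.26 ± 0.04 (adjusted p = 6.07e-05). Oasl2, a synthetase-like gene, differed by 0.32 ± 0.07 (adjusted p = 0.000724). The other three were not called, and their intervals limit the size of a difference. Oasl1, which in mouse holds back translation of Irf7, had a difference of 0.11 with a 95% interval of -0.0015 to 0.23. The interval was -0.025 to 0.13 for Oas3, around 0.052, and -0.13 to 0.18 for Oas1a, around 0.025. With array weights Oas3 and Oasl1 were called higher, at 0.096 and 0.13.

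Genes around Isg15, a ubiquitin-like protein that is attached to other proteins, were higher in 3 of 3 measured cases. Usp18, which removes Isg15 and also restrains the type I interferon receptor, had log2 values of 7.91, 8.61 and 9.19 on high fat diet and 7.55, 8.01 and 8.77 on chow. The ranges overlap over the day, but within a time all high fat diet arrays lay above all chow arrays at 5 of 6 times. The difference was 0.51 ± 0.06 (adjusted p = 8.92e-08). Herc6, the main ligase for Isg15 in mouse, had log2 values of 8.12, 8.56 and 8.82 on high fat diet and 7.59, 8.08 and 8.54 on chow. It differed by 0.46 ± 0.05 (adjusted p = 3.53e-08), with all 18 high fat diet arrays above the chow median. Trim25, a ubiquitin ligase that helps activate RIG-I, differed by 0.24 ± 0.04 (adjusted p = 1.44e-05).

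Guanylate-binding proteins are GTPases that attack the compartments of intracellular pathogens. Gbp3 had log2 values of 6.81, 7.50 and 8.32 on high fat diet and 6.32, 6.80 and 7.23 on chow, and 16 of 18 high fat diet arrays exceeded the highest chow array. At ZT12 its log2 values were 7.62, 7.74 and 8.32 on high fat diet and 6.52, 6.62 and 6.87 on chow. The groups did not overlap at any of the 6 times, and the average difference was 0.69 ± 0.07 (adjusted p = 2.78e-08). Gbp7 differed by 0.40 ± 0.08 (adjusted p = 0.000165). Gbp9 was near the threshold at 0.17 ± 0.06 (adjusted p = 0.0458), and 25 of 47 alternative settings lost its call.

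The ADP-ribosyltransferase genes and their ligase partner were called higher in 4 of 4 cases. Parp9 had log2 values of 9.20, 9.38 and 9.65 on high fat diet and 8.74, 9.08 and 9.21 on chow. Of the 33 genes it separated the diets most over the day, since 17 of 18 high fat diet arrays exceeded the highest chow array, at a difference of 0.32 ± 0.03 (adjusted p = 1.39e-08). Dtx3l, the ubiquitin ligase that pairs with Parp9, had log2 values of 9.64, 10.06 and 10.31 on high fat diet and 9.28, 9.70 and 9.93 on chow. Its difference of 0.32 ± 0.04 (adjusted p = 1.27e-06) was close to that of its partner. Parp14 differed by 0.21 ± 0.05 (adjusted p = 0.00268), and Parp12 by 0.11 ± 0.04 (adjusted p = 0.0453), a call that 28 of 47 alternatives lost.

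Of the 9 other effectors 7 were called higher. Rsad2, which encodes viperin, a maker of an antiviral nucleotide, had log2 values of 7.22, 7.89 and 9.02 on high fat diet and 6.61, 7.25 and 7.96 on chow. Its difference was 0.67 ± 0.08 (adjusted p = 3.73e-07). Cmpk2, a mitochondrial nucleotide kinase gene next to Rsad2, differed by 0.45 ± 0.07 (adjusted p = 3.75e-05). Ifi27, a small hydrophobic protein, had log2 values of 9.82, 10.30 and 10.82 on high fat diet and 9.51, 9.76 and 9.94 on chow. With 16 of 18 high fat diet arrays above the highest chow array, Ifi27 differed by 0.51 ± 0.06 (adjusted p = 8.56e-08).

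Smaller differences completed that group. Rtp4, a chaperone of G protein-coupled receptors, differed by 0.42 ± 0.06 (adjusted p = 6.53e-06) and Xaf1, a partner of the apoptosis inhibitor XIAP, by 0.39 ± 0.06 (adjusted p = 5.62e-06). Tap1, which pumps peptides to MHC class I, differed by 0.31 ± 0.06 (adjusted p = 0.000681), and Lgals3bp, a secreted glycoprotein, by 0.28 ± 0.06 (adjusted p = 0.00103). Ifi35, a leucine zipper protein, was not called, at -0.0027 with a 95% interval of -0.073 to 0.068.

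Bst2, which encodes tetherin, a protein that holds budding viruses at the cell surface, went the other way. Its log2 values were 8.90, 9.23 and 9.52 on high fat diet and 9.28, 9.49 and 9.61 on chow. At ZT20 they were 9.26, 9.27 and 9.33 on high fat diet and 9.51, 9.55 and 9.60 on chow. All high fat diet arrays lay below all chow arrays at 5 of 6 times, ZT8 being the exception, and the mean was lower at all 6. The difference was -0.27 ± 0.05 (SE, adjusted p = 0.000134), and the call was kept in 47 of 47 alternative settings. Its promoter, printed above, holds overlapping ISRE cores, as does that of Gbp3, which was higher.

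The second question was at which times of day the difference was seen. Of the 33 genes, 24 of the 28 called higher had a positive difference at 6 of 6 times, yet 8 of the 28 passed the threshold at no single time, where each diet has 3 arrays. The 28 were called on the average of these same times, so mostly positive differences follow in part from the call. Neither share was counted among all genes called higher, so they are not shown to be particular to these genes. At ZT0, 12 genes were called higher and 1 lower, while 7.12% of all genes were called and 3.37% called higher. All calls at the later times were of higher genes. At ZT4 there were 8 (3.69% of all genes were called, 2.29% higher), and at ZT8 there was 1, Ifi27 (0.774% called, 0.279% higher). At ZT12, the start of the dark phase, 17 were called (5.44% of all genes called, 2.47% higher). At ZT16 there were 4 (2.22% called, 1.05% higher) and at ZT20 there were 3 (2.04% called, 1.24% higher). The median difference of the 33 genes was 0.36, 0.31, 0.17, 0.46, 0.19 and 0.31 from ZT0 to ZT20, and that of all genes was at most 0.03.

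**Figure D3:**
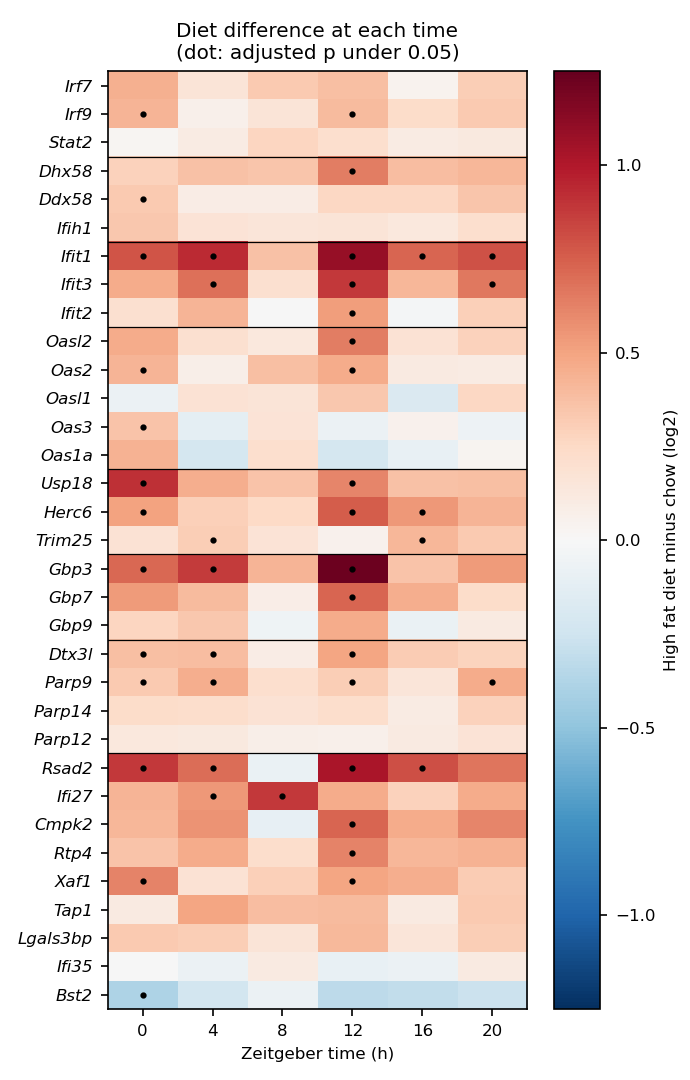
Difference of each of the 33 genes at each Zeitgeber time in hours, high fat diet minus chow on the log2 scale, from blue (lower on high fat diet) to red (higher). Dots mark an adjusted p under 0.05 at that time; ZT12 holds 17 dots and ZT8 holds 1, and lines part the role groups.

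Ifit1 was called at 5 of 6 times and Parp9 and Rsad2 at 4. Ifit1 differed by 0.79 ± 0.18 at ZT0, 0.94 ± 0.18 at ZT4, 0.37 ± 0.18 at ZT8, 1.09 ± 0.18 at ZT12, 0.73 ± 0.18 at ZT16 and 0.79 ± 0.18 at ZT20 (SE). The smallest of these, at ZT8, was the one without a call (limma adjusted p = 0.516). Usp18 differed most at ZT0, where its log2 values were 8.55, 9.03 and 9.11 on high fat diet and 7.85, 8.03 and 8.05 on chow (0.92 ± 0.14, adjusted p = 0.000226). Ifi27 differed most at ZT8, with log2 values of 10.32, 10.42 and 10.82 on high fat diet and 9.51, 9.53 and 9.86 on chow (0.88 ± 0.14, adjusted p = 0.000543).

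The counts at single times rest on few arrays, and leaving out 1 array moved them by more than 1.5 times in several cases. At ZT0 the 13 calls became 8 without chow replicate 2, 4 without chow replicate 3 and 6 without high fat diet replicate 1. At ZT4 the 8 became 2 without chow replicate 2, 5 without chow replicate 3, 5 without high fat diet replicate 1, 5 without replicate 2 and 3 without replicate 3. The single call at ZT8 became 2 without chow replicate 3. At ZT12 the 17 became 8 without chow replicate 2, 10 without chow replicate 3, 11 without high fat diet replicate 1 and 11 without replicate 3. At ZT16 the 4 became 0 without chow replicate 2, 0 without high fat diet replicate 2 and 2 without high fat diet replicate 3. At ZT20 the 3 became 7 without chow replicate 1, 1 without chow replicate 3, 9 without high fat diet replicate 1 and 1 without high fat diet replicate 3. Leaving out 1 array of another time, high fat diet ZT0 replicate 1 or chow ZT4 replicate 2, gave 5 at ZT20.

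Whether the diet difference itself changed with time was tested as an interaction of diet and time. Limma called 0 of the 33 genes, against 0.631% of all genes, with 5 at an unadjusted p under 0.05 and a lowest adjusted p of 0.204. With array weights 4 of the 33 were called, and the share of all genes called for the interaction was not counted there. That setting also raised the average diet calls over all genes, to 2263 higher and 1996 lower from 1570 and 1367. The different counts at single times are therefore not shown to be different effects. The genes with the smallest interaction p were Oas3, Rsad2, Gbp3 and Oas2.

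Oas3 had log2 values of 6.34, 6.47 and 6.49 on high fat diet and 6.03, 6.06 and 6.15 on chow at ZT0, a difference of 0.35 ± 0.09 (adjusted p = 0.0199). At the other times its difference lay between -0.12 and 0.17, so the average over the day was near 0. The interaction had an adjusted p of 0.204. Rsad2 differed by 0.89 ± 0.20 at ZT0 and by 1.02 ± 0.20 at ZT12, but by -0.08 ± 0.20 at ZT8 (interaction adjusted p = 0.214). At ZT8 its log2 values were 7.22, 7.31 and 7.40 on high fat diet and 6.99, 7.56 and 7.63 on chow, and the groups overlapped. Gbp3 ran from 0.35 at ZT16 to 1.22 at ZT12 (interaction adjusted p = 0.262), and Oas2 from 0.07 at ZT4 to 0.46 at ZT12 (interaction adjusted p = 0.321).

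The third question was whether these genes follow the day. A wave with a period of 24 h was fitted to each diet, and amplitudes are given from mean to peak. On high fat diet 10 of the 33 genes were rhythmic by limma at an adjusted p under 0.05, against 11.0% of all genes. On chow 16 were, against 20.6% of all genes, and the 10 rhythmic genes of the high fat diet were all among these 16. The 10 on high fat diet were Usp18, Rsad2, Cmpk2, Ifit1, Gbp7, Oasl1, Ddx58, Ifih1, Lgals3bp and Parp12. The further 6 on chow were Herc6, Dhx58, Xaf1, Rtp4, Irf9 and Stat2. The count on high fat diet was 5 without high fat diet ZT4 replicate 3, 6 with arrays centred on their medians and 17 by an F test of the 6 time means. Shares of all genes under these settings were not counted.

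Of the peaks of genes called rhythmic, all but 1 fell in the light phase. All 10 genes rhythmic on high fat diet had a fitted peak between 0.12 and 7.86 h after lights on. Cmpk2 (0.12 h) and Rsad2 (0.45 h) lay at the border with the dark phase. Livers were taken every 4 h and no interval was computed for a peak, so the phase of these genes is not resolved. On chow 15 of 16 peaked between 1.77 and 7.49 h, and Stat2 peaked at 22.3 h. Among all rhythmic genes, 51.2% on high fat diet and 64.3% on chow had their peak in the light phase. Amplitudes of the rhythmic interferon-stimulated genes ran from 0.21 to 0.51 on high fat diet (median 0.31) and from 0.21 to 0.47 on chow (median 0.26), and the median over all rhythmic genes was 0.22 on high fat diet and 0.21 on chow.

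**Figure D4:**
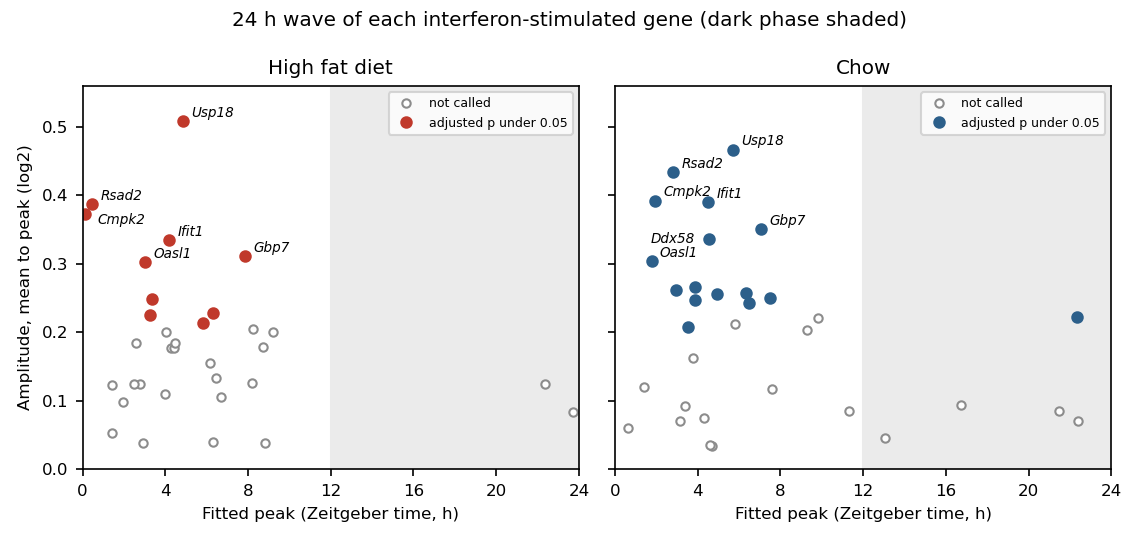
Fitted amplitude (mean to peak, log2) against fitted peak time in hours after lights on for each of the 33 genes, high fat diet at left and chow at right, with the dark phase shaded. Filled points are genes called rhythmic, 10 on high fat diet and 16 on chow. All filled points but that of Stat2 on chow lie in the light phase.

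Usp18 had the largest amplitude on both diets. Its group means ran from 9.08 at ZT4 down to 8.08 at ZT20 on high fat diet, and from 8.63 at ZT4 down to 7.70 at ZT20 on chow. The amplitude was 0.51 with a peak at 4.84 h on high fat diet (adjusted p = 2.17e-06) and 0.47 with a peak at 5.72 h on chow (adjusted p = 6.83e-06). Among the RNA sensors, Ddx58 had an amplitude of 0.25 and a peak at 3.34 h on high fat diet (adjusted p = 0.000975), and 0.34 and 4.56 h on chow (adjusted p = 7.27e-06). Ifih1 had an amplitude of 0.23 and a peak at 6.33 h on high fat diet (adjusted p = 0.000772), and 0.25 and 7.49 h on chow (adjusted p = 0.000137).

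Parp12 was a gene with a marked wave and a small diet difference. At ZT4 its log2 values were 9.93, 9.94 and 9.96 on high fat diet and 9.79, 9.82 and 9.84 on chow. At ZT16 they were 9.44, 9.54 and 9.55 on high fat diet and 9.33, 9.40 and 9.44 on chow. The amplitude was 0.21 with a peak at 5.84 h on high fat diet (adjusted p = 0.000913) and 0.24 on chow (adjusted p = 0.000106). Oasl1, not called between the diets, was rhythmic on both, with an amplitude of 0.30 on high fat diet (adjusted p = 0.0207) and 0.30 on chow (adjusted p = 0.0116). The rhythm of Lgals3bp was near the threshold on both diets, and 24 of 47 alternatives on high fat diet and 31 of 47 on chow lost it.

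The test that the wave is the same on both diets called 0 of the 33 genes, against 0.0287% (4 genes) of all genes. In limma's test 0 had an unadjusted p under 0.05, and the lowest adjusted p was 0.639. The smallest p-values belonged to Ifi27, Herc6, Ddx58 and Parp9. Herc6 had an amplitude of 0.18 on high fat diet and 0.26 on chow (unadjusted p of the difference 0.161). Ifi27 had an amplitude of 0.13 on high fat diet and 0.09 on chow and was called rhythmic on neither (unadjusted p of the difference 0.0771). Ddx58 (0.173) and Parp9 (0.221) followed. That 10 genes were rhythmic on high fat diet and 16 on chow is thus not shown to be a difference between the diets.

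Other genes of the pathway give the setting of these values, and their counts stand against the 21.0% of all genes tested that were called, 11.2% higher and 9.80% lower. Of 16 measured interferon ligands, 11 were below the intensity limit of the tests, among them Ifnb1 and Ifng, and none of the 5 tested was called. The smallest p among them was that of Ifnz, a zeta-type interferon gene, at 0.12 ± 0.07 (limma adjusted p = 0.223). Of 13 genes of the interferon receptors and JAK-STAT signalling, 1 was called higher, 2 lower and 10 not, a share near that of all genes. Stat5a, which acts in cytokine and growth hormone signalling, differed by 0.24 ± 0.04 (adjusted p = 0.000122). Ifnar2, a chain of the type I interferon receptor, differed by -0.14 ± 0.04 (adjusted p = 0.0097), and Stat6, which acts in interleukin signalling, by -0.11 ± 0.03 (adjusted p = 0.0106).

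Most inhibitors, other interferon regulatory factors and sensors were not called, and these short lists stand beside the 21.0% of all genes that were called. Of 8 signalling inhibitors 6 were not called, and Ptpn1, a phosphatase of JAK kinases, was higher at 0.13 ± 0.05 (adjusted p = 0.0449), a call that 28 of 47 alternatives lost. Socs2, an inhibitor of growth hormone signalling, was lower at -0.88 ± 0.18 (adjusted p = 0.000655). Of 6 tested genes listed as other interferon regulatory factors 4 were not called. Among these 4 was Irf2bp2, which encodes a binding protein of Irf2 and not a factor of the family. Irf2 was higher at 0.10 ± 0.04 (adjusted p = 0.0362), a call that 15 of 47 alternatives lost, and Irf5 lower at -0.32 ± 0.07 (adjusted p = 0.000835). Among 16 tested sensors and adaptors upstream of interferon, 3 were higher, namely Tlr3 (0.26), Zbp1 (0.26) and Tlr7 (0.44), 1 was lower, the kinase gene Ikbke (-0.26), and 12 were not called.

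Of 37 tested further interferon-stimulated genes outside the 33, 17 were called higher, against 11.2% of all genes, 1 was called lower and 19 were not called. This list too was chosen with earlier results of these data known, so its count is a description and not independent evidence. Their median difference was 0.14, against 0.02 over all genes tested. Tor3a, an ATPase of the endoplasmic reticulum, differed by 0.56 ± 0.07 (adjusted p = 2.81e-07), and Ube2l6, the conjugating enzyme for Isg15, by 0.28 ± 0.03 (adjusted p = 3.59e-07). Trim30a differed by 0.43 ± 0.05 and Iigp1, an immunity-related GTPase, by 0.36 ± 0.06. The lower gene was Ifitm2, at -0.12 ± 0.04 (named after its value was seen). Of 5 chemokines that interferon gamma induces 4 were higher, Cxcl9 (0.51), Cxcl10 (0.32), Cxcl11 (0.21) and Ccl5 (0.21), and centring on array medians lost Cxcl11 and Ccl5.

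Of 15 antigen processing genes 10 were not called, 4 were higher and 1 lower, against 21.0% of all genes called in either direction, and the median difference was -0.0016. The inducible proteasome subunits Psmb9 (0.48 ± 0.05, adjusted p = 9.35e-08) and Psmb8 (0.24 ± 0.06, adjusted p = 0.0038) were higher, as was the class I gene H2-Q4 (0.16 ± 0.05, adjusted p = 0.018), whose sequence is close to that of other class I genes and whose call was lost with arrays centred on their medians. Psme1, a subunit of the proteasome activator that interferon gamma induces, was lower at -0.28 ± 0.05 (adjusted p = 0.000271). None of 7 MHC class II genes was called, the smallest p being that of H2-Oa (-0.10 ± 0.05, adjusted p = 0.135).

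**Figure D5:**
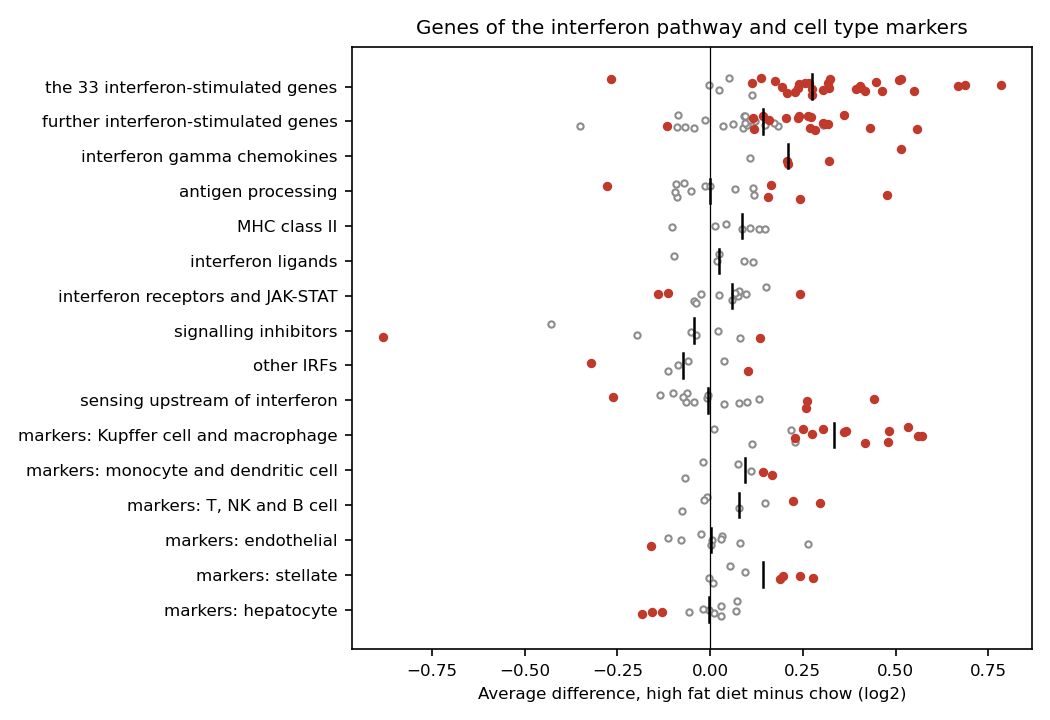
Average difference, high fat diet minus chow on the log2 scale, of the tested genes of the 33, of other interferon pathway lists and of cell type markers, 1 point per gene. Filled points had an adjusted p under 0.05, open points did not, and black bars are medians, which are 0.28 for the 33 genes and 0.33 for markers of Kupffer cells and macrophages.

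Markers of Kupffer cells and macrophages were higher in the same samples. Of 16 markers 12 were called higher, against 11.2% of all genes, and 0 lower, with a median of 0.33 and none below the intensity limit. The marker lists were also chosen with earlier results of these data known. Their summed intensity lay between 4640 and 10986 (median 6372) on high fat diet and between 3129 and 8226 (median 5210) on chow, and the ranges overlap. The smallest p-values were those of Mpeg1, a pore-forming protein of macrophages (0.57 ± 0.07), Cd5l, a protein secreted by macrophages (0.56 ± 0.10), Fcgr1, an Fc receptor (0.23 ± 0.05), and Clec4f, a lectin of Kupffer cells (0.31 ± 0.07). Fcgr1 is itself inducible by interferon. The part of these cells in the differences of the interferon-stimulated genes was not tested.

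Markers of other cell types were mostly not called, and the lists were not tested against each other. Of 6 tested monocyte and dendritic cell markers 2 were higher, Cx3cr1 (0.17) and Cd209a (0.14), 4 were not called and 6 more were below the limit. Of 7 tested T, NK and B cell markers 2 were higher, Cd4 (0.30) and the pan-leukocyte gene Ptprc (0.22), 5 were not called and 8 more were below it. Of 8 stellate cell markers 4 were higher, Reln (0.28), Lrat (0.24), Dcn (0.19) and Bgn (0.20), against 11.2% of all genes. Of 10 endothelial markers Tie1 was lower (-0.16) and 0 were higher. None of 4 tested neutrophil markers was called, the smallest p being that of Csf3r (0.12, adjusted p = 0.0681). Of 11 hepatocyte markers 3 were lower, Cps1 (-0.16), Tat (-0.18) and Hnf4a (-0.13), against 9.80% of all genes, and 0 higher. Their part in the differences was not tested either. Several of these calls lay near the threshold: 24 of 47 alternatives lost that of Dcn, 22 that of Bgn, 18 that of Ptprc and 13 that of Lrat, and 21 of 46 lost that of Cd209a, centring on array medians being among them for each.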

How the data were processed

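Liver RNA of 36 samples in 12 groups of 3 was measured on Affymetrix whole-transcript arrays. The deposited values are a linear intensity for each of 35556 probe sets per array, made by the authors with Affymetrix Expression Console 1.1.1 and PLIER 2.0, per the submitters' processing notes. For the genome build, the background correction and any scaling between arrays, the method is not given in the sources used here. No further scaling was applied, so scale differences that remained between arrays stay in the values, and the number of arrays limits the precision.

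Names of probe sets came from GEO's platform annotation, in which 21789 had 1 gene, 1621 several and 12146 none listed, and symbols were updated for 99.6% of the single-gene ones. Values were used as log2(intensity + 16), which understates changes of dim probe sets. Genes above the 30th percentile of mean log2 value (6.11) were tested, 13956 in all, including all 33 interferon-stimulated genes with a value. Limma 3.58.1 in R 4.3.3 fitted 12 group means with 24 residual degrees of freedom, giving the average diet effect, the effect at each time and the interaction. A second limma fit of a 24 h cosine and sine wave per diet gave the rhythm tests. Adjusted p-values are Benjamini-Hochberg values over all genes tested. The fits were also run on simulated data with independent noise for each gene and array. Such data hold no deviations shared by many genes of an array, so that run does not cover them.

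The 38 genes and the further lists were chosen with earlier results of these data known. Full values are given for the 10 genes with the smallest average p, called genes of opposite sign, and the 4 with the smallest p for the interaction, for rhythm on each diet and for the rhythm difference. Of other lists, up to 4 called genes with the smallest p are named, or the gene with the smallest p where none was called. Alternatives covered scaling, the intensity filter, the offset, probe set means, a replicate block, array weights, the variance prior, thresholds, the rhythm test and leaving out each array. Leaving out the 4 arrays of lowest weight was chosen after seeing the data. Promoters came from RefSeq (GRCm38.p6). Protein sequences were not used here.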

Additional observations from a re-analysis of the deposited data

How the results depend on the processing

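In the average comparison the number of interferon-stimulated genes called higher stayed between 24, with a filter at the 50th percentile that left fewer of them tested, and 30, with array weights, and 1 was lower under every alternative tried. Leaving out each array in turn gave 26 to 28 higher and 1 lower. The same exercise gave 4 to 15 calls at ZT0, 2 to 9 at ZT4, 1 to 2 at ZT8, 8 to 18 at ZT12, 0 to 4 at ZT16, 1 to 9 at ZT20, 0 for the interaction, 5 to 11 rhythmic genes on high fat diet, 15 to 18 on chow and 0 for the rhythm difference. Quantile normalization gave 7 calls at ZT20. Centring on array medians gave 6 at ZT0, 4 at ZT4, 1 at ZT16 and 6 rhythmic genes on high fat diet. A filter at the 50th percentile gave 6 at ZT20, an offset of 64 gave 5 and an intensity trend with a robust prior gave 5. Array weights gave 6 at ZT8, 13 at ZT16, 13 at ZT20 and 4 for the interaction. They also raised the average diet calls over all genes, to 2263 higher and 1996 lower. For single times, the interaction and the rhythm, shares of all genes were not counted under any of these alternatives. At an adjusted p under 0.01 there were 4 at ZT0, 3 at ZT4, 9 at ZT12, 0 at ZT16, 1 at ZT20 and 5 rhythmic genes on high fat diet. An F test of the 6 time means gave 17 rhythmic genes on high fat diet. Without the 4 arrays of lowest weight there were 3 at ZT4 and 1 at ZT20. The cause of these moves was not tested, apart from the fewer arrays or the stricter limit themselves.

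The sign of Oas1a turned under quantile normalization (-0.0227), median centring (-0.0155) and array weights (-0.00367), and leave-one-out values ran from -0.0197 to 0.0681 for Oas1a and from -0.0191 to 0.0101 for Ifi35, neither of which was called. Over all genes, median centring gave 827 higher and 1926 lower calls and quantile normalization 1455 and 1712, against 1570 and 1367 in the values as deposited. The median of all genes moved to -0.02 and -0.01 under them. With the replicate number as a block, 28 interferon-stimulated genes were higher and 1 lower, 14, 7, 1, 17, 4 and 3 were called at ZT0 to ZT20, 9 and 15 were rhythmic on high fat diet and chow, and 0 were called for the interaction and the rhythm difference. Deviations from the group means were correlated over 198 pairs of same-numbered samples of different groups. The correlations ran from -0.587 to 0.429, and 75 were above 0.1. Pairs of different numbers were not compared, so these values cannot tell whether samples of 1 number share more than the number.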

Other observations

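In 5 of the 36 arrays at least 29 or at most 3 of the 33 interferon-stimulated genes lay above their group mean. Of the 33 genes, 29 lay above their group mean in high fat diet ZT20 replicate 3 and 2 in replicate 1 of that group. On chow the number was 31 in ZT12 replicate 1 and 30 in ZT20 replicate 1, whereas it was 3 in ZT8 replicate 1. Of all tested genes, 45.8% lay above their group mean in high fat diet ZT20 replicate 3 and 39.8% in replicate 1. In chow ZT12 replicate 1 the share was 52.4%, in chow ZT20 replicate 1 49.3% and in chow ZT8 replicate 1 37.7%. The mean deviation of the macrophage markers in the same arrays was 0.10 in high fat diet ZT20 replicate 3, -0.18 in replicate 1, 0.33 in chow ZT12 replicate 1, 0.01 in chow ZT20 replicate 1 and -0.59 in chow ZT8 replicate 1. In the other arrays the number ran from 4 (chow ZT12 replicate 2) to 26. The 5 arrays were picked after their values were seen, and no test was made.

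Averaged over the 33 genes, the log2 value at ZT20 was 8.06, 8.29 and 8.35 on high fat diet and 7.76, 7.93 and 8.07 on chow, and the diets overlapped. At ZT8 it was 8.37, 8.39 and 8.41 on high fat diet and 8.06, 8.24 and 8.27 on chow, without overlap. The diets did not overlap at ZT0, ZT4, ZT12 or ZT16 either. At ZT20 the overlap was narrow, with the lowest high fat diet array at 8.06 and the highest chow array at 8.07. The same average over all tested genes was not compared, and no test was made.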
